A study of Mus musculus with 6 samples.

Results

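The core circadian clock genes Clock, Arntl, Npas2, Per1, Per2, Per3, Cry1, Cry2, Nr1d1 and Dbp were followed in the cerebellum of day old mouse pups from dams on 2 levels of dietary folic acid (FA). Every non-control probe whose gene name on the array equals one of these 10 symbols was taken, which gave 13 probes of the 55681 on the array, and each of the 10 genes had at least 1 probe among the 34797 gene names. All dams were C57BL/6J and were fed an amino acid-based AIN-93G diet from the week before mating to the end of pregnancy, with FA at 2 mg/kg in the control group and 20 mg/kg in the high FA group. Pups were killed at postnatal day 1 (P1). Each array was hybridized with RNA pooled from 3 pups of one sex, every pup from a different dam. For each sex there was 1 array at 2 mg and 2 arrays at 20 mg, the second 20 mg pool being drawn from a separate batch of pups. The pool is therefore the replicate, and the spread between pools was measured at 20 mg alone. The titles give the tissue as cerebellum and a field of the labels gives it as whole brain. The hour of the day at which pups were killed is not given in the sources used here.

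The circadian clock is a transcriptional feedback loop. CLOCK, or its paralog NPAS2, pairs with BMAL1, the product of Arntl, and the pair binds E-box sequences to drive the Period (Per) and Cryptochrome (Cry) genes, whose proteins then repress the pair. The same pair drives Nr1d1, which encodes the nuclear receptor REV-ERB alpha that represses Arntl, and Dbp, an output transcription factor that binds D-box sequences. In adult tissues Arntl and Npas2 messages peak at about the opposite time of day from Dbp and Nr1d1, so that the hour of collection is itself known to move these genes. In the newborn rodent brain these rhythms are still maturing.

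The sequences through which the loop acts were read in the promoter windows of RefSeq (GRCm38.p6), which run from 250 bases before to 50 bases after each annotated start. Entries were found for 9 of the 10 genes, in 13 windows; Per2 was not matched. Both strands were searched for the E-box CACGTG and the related E'-box CACGTT, which differ in their last base and so never fall on the same bases. The E-box was in 7.15% of all 32851 windows and the E'-box in 4.68%. Among the clock genes the E-box was found in Cry1 and in 1 window of Per1, and the E'-box in Cry1, Cry2 and Nr1d1. The windows of Cry1 and Nr1d1 and the window of Per1 that held an E-box are printed 5' to 3', with E-box and E'-box matches in capitals. The window of Cry2 is not printed. On the strand printed, the E'-box of Cry1 and of Nr1d1 reads AACGTG. They lie at chr11:69098699-69098998 on the plus strand (Per1), chr10:85185005-85185304 on the minus strand (Cry1) and chr11:98775328-98775627 on the minus strand (Nr1d1).
Per1: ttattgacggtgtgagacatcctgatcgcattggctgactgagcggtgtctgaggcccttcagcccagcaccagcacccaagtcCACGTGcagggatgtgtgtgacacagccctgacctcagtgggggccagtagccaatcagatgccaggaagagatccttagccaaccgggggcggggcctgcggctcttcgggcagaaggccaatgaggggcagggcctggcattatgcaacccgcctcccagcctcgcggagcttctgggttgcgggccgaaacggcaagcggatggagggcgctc
Cry1: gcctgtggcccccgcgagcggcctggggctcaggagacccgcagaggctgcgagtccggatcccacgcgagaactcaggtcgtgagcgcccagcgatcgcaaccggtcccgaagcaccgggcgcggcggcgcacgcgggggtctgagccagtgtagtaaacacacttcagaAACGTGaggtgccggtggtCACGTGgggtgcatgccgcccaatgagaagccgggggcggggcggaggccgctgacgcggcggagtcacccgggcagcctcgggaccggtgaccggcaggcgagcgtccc
Nr1d1: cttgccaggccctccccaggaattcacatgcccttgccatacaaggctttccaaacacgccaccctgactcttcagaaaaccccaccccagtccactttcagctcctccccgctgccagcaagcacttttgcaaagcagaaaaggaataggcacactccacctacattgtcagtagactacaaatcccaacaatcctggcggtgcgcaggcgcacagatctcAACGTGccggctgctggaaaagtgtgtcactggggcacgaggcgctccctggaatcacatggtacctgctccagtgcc

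Cry1 thus holds an E-box whose first base is at -60, counted back from the base before its start site as -1, and an E'-box at -79, while the E'-box of Nr1d1 begins at -28 and the E-box of Per1 at -166. The D-box TTATGTAA or TTACGTAA, in 1.06% of windows, was matched in Per3 alone. The hexamer AGGTCA, which ROR and REV-ERB receptors bind, was in 16.3% of windows and was matched in Clock, Arntl and Per1. The cAMP response element TGACGTCA, in 1.79% of windows, was matched in none of the 9 genes. Such a match describes the letters of the window, and binding was not measured.

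Of the probes, that of Nr1d1 (A_51_P223776) is the only one whose position on mm9, the build of the array design, spans more than its own length. It covers 503 bases at chr11:98630526-98631028 on the minus strand, so its 60 bases cross an exon junction, and 1 of its 3 reading frames holds no stop codon.
Nr1d1 probe: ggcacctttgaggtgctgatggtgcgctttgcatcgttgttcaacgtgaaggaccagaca

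Levels are log2 values of the processed signal after quantile normalization of the 6 arrays together, with a floor of 10 on the linear scale, and are compared between arrays for one probe, not between probes. A signal was counted as measured where the image software marked it as well above background. On the array of female 20 mg replicate 2 only 23.3% of all probes were well above background, against 51.1% to 71.9% on the other 5 arrays, and its median processed signal was 5.17 against 41.8 to 178. Of the clock genes, 6 of 10 were not well above background there, while 8 of 10 were measured on all 5 other arrays. The female differences of Clock, Arntl, Per2, Cry1, Nr1d1 and Dbp are given with and without this array. Other female values, and the limma fit, include it unless stated. Both 2 mg arrays and female 20 mg replicate 1 share slide 1, female 20 mg replicate 2 and male 20 mg replicate 1 share slide 2, which was scanned on an earlier day, and male 20 mg replicate 2 is on slide 3. In males the slide and the dose cannot be told apart, and in females the only comparison within a slide is that of replicate 1 with the 2 mg array.

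**Figure D1:**
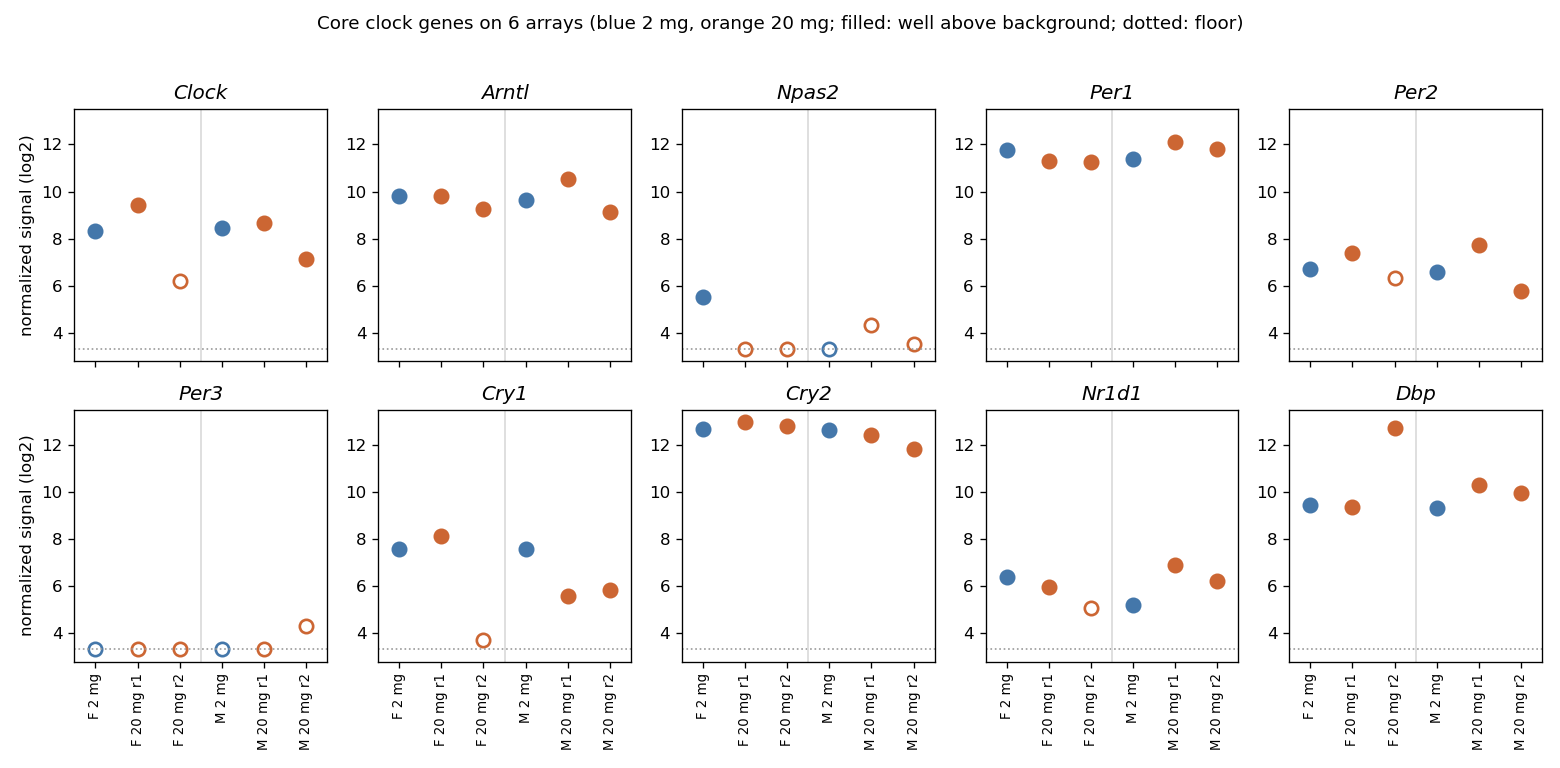
Normalized signal (log2) of each clock gene on the 6 arrays, by the brightest probe of the gene. Points are single arrays of females (F) and males (M) at 2 mg (blue) or 20 mg (orange), r1 and r2 are the replicate pools, open points were not well above background, and the dotted line is the floor. Cry1 lies at 7.57 on the male 2 mg array and at 5.60 and 5.84 at 20 mg, and Dbp stands at 12.72 on female 20 mg replicate 2 against 9.31 to 10.30 elsewhere.

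By the rule of the study's methods, a transcript was counted as changed if it passed a filter on variation over the 6 arrays and its mean at 20 mg differed from the 2 mg array at least 2.5-fold. The rule includes no test. In males 1 of the 10 clock genes was lower by this rule (Cry1) and none was higher, against 2.17% of all probes lower and 1.42% higher. In females 1 was lower (Cry1) and 1 higher (Dbp), against 10.3% of all probes lower and 8.65% higher. As applied here, the rule thus called 1208 probes lower and 790 higher in males, and 5737 lower and 4815 higher in females. The study reports fewer transcripts in each direction in both sexes, with the widest gap for higher transcripts in females. Its list of neural genes changed in females holds neither Cry1 nor Dbp. The reason for these gaps was not tested. Of the 15247 probes past the variation filter alone, 7.92% were lower and 5.18% higher in males, and 37.6% were lower and 31.6% higher in females. Only 3 of the 10 genes passed the variation filter (Clock, Cry1 and Dbp). To set each difference against the replicate error, a limma model took the 37206 probes that were well above background on 2 or more arrays, which held 8 of the 10 genes and left out Npas2 and Per3. Each of these 8 genes had an adjusted p of 1 in males, in females, over both sexes and for the difference between the sexes, and over all probes limma called 0% in each of these comparisons. At an unadjusted p under 0.05 it held 74 probes in males, 161 in females, 144 over both sexes and 51 for the difference between the sexes, and no clock gene was among them. No dose difference of these 8 genes thus passed the test, and Npas2 and Per3 were not tested.

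Among the activators of the loop, Clock and Arntl showed no direction shared by the pools of either sex. Clock, which encodes the partner of BMAL1, was measured at 8.33 on the female 2 mg array, 9.44 on female 20 mg replicate 1, 8.44 on the male 2 mg array, 8.68 on male 20 mg replicate 1 and 7.16 on male 20 mg replicate 2. On female 20 mg replicate 2 its probe (mm9 chr5:76641377-76641436, minus strand) stood at 6.22, not well above background. The 20 mg arrays of each sex thus fell on both sides of their 2 mg array, and the mean difference was -0.52 in males (SD of the 20 mg arrays 1.07, n = 2) and -0.50 in females (SD 2.27, n = 2). In females it was 1.12 without replicate 2.

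Arntl, which encodes BMAL1, was well above background on all 6 arrays (mm9 chr7:120457261-120457320, plus strand). Its level was 9.82 on the female 2 mg array, 9.83 and 9.26 on the female 20 mg arrays, 9.65 on the male 2 mg array, and 10.52 and 9.12 on the male 20 mg arrays. The differences of the male 20 mg arrays from the 2 mg array were 0.87 and -0.52. The mean differences of 0.18 in males (SD 0.99) and -0.28 in females (SD 0.41) were smaller than the spread between pools. Without female 20 mg replicate 2 the female difference was 0.01.

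Npas2, the paralog of Clock found mainly in the forebrain, was well above background on a single array (mm9 chr1:39418941-39419000, plus strand). It stood at 5.52 on the female 2 mg array and between 3.32, the floor, and 4.34 on the other 5, where it was not well above background, so that no fold is given. The same array also had the highest summed normalized signal for 8 markers of the suprachiasmatic nucleus and hypothalamus, 1190 on the linear scale with 7 of 8 well above background. The sum was 125 to 622 on the other arrays, with 0 to 6 of 8 well above background. The members of this list did not move together, and they are named after their values were seen. Avp, at 9.31 on the female 2 mg array and 4.60 to 8.03 elsewhere, Six6, Nkx2-1 and Sim1 were highest there. Vip, Prok2, Nms and Otp were each higher on another array. The sum of 8 forebrain markers did not peak on that array. It was 6510 there and 15800 on female 20 mg replicate 1, where Npas2 was at the floor. The part of cells of either list in the Npas2 signal was not tested.

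Of the repressors, Cry1 was the only clock gene called in males. CRY1 is a potent repressor of the CLOCK and BMAL1 pair. Its single probe (A_52_P420500, mm9 chr10:84594731-84594790, minus strand) was measured at 7.57 on the male 2 mg array, 5.60 on 20 mg replicate 1 and 5.84 on replicate 2. Both male 20 mg arrays lay below the 2 mg arrays of both sexes and were close to each other. The difference was -1.85, or 3.61-fold lower (SD of the 20 mg arrays 0.17, n = 2). Its SE in limma, which draws on the spread of all probes, was 2.30, with an adjusted p of 1. Cry1 was among the genes that the study names from these arrays, so its direction is not independent evidence.

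In females the level of Cry1 was 7.59 at 2 mg, 8.15 on 20 mg replicate 1 and 3.71, not well above background, on replicate 2. The differences of replicates 1 and 2 from the 2 mg array were thus 0.55 and -3.88, and the called mean difference of -1.67 (SD 3.14) rests on the dim array. Without that array the difference was 0.59, and on slide 1 alone it was 0.60. In males the difference lay between -2.12 and -1.12 under the 12 alternatives of scaling, floor, background correction, source table, probe and arrays left out. The call was lost under a shift to a common 75th percentile, where the probe did not pass the variation filter, and with normexp (-1.19) or no background correction (-1.12), where the difference fell short of 2.5-fold. With scan day as a term in limma it was -0.68 (SE 2.55), and with slide as a random block -2.35. The scan day term was fitted over both sexes, so it also drew on the dim array. On the male arrays of the later scan day alone the difference was -1.81.

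**Figure D2:**
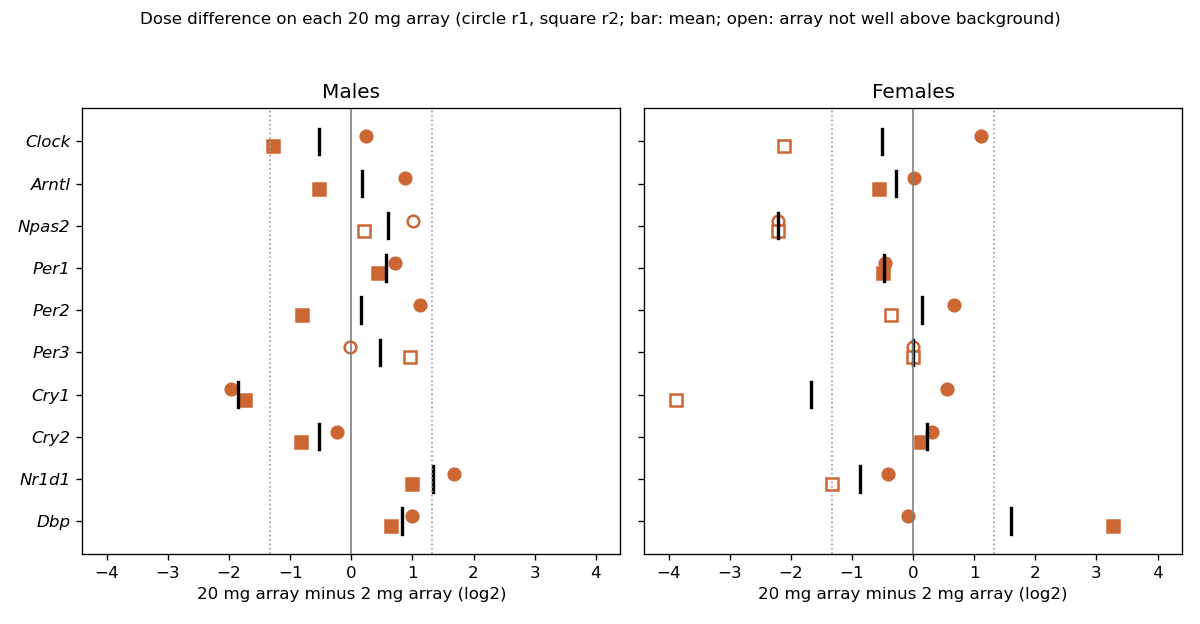
Difference between each 20 mg array and the 2 mg array of its sex (log2) for each clock gene, males on the left and females on the right. Circles are replicate 1, squares replicate 2, bars the mean of both, open symbols arrays where the probe was not well above background, and dotted lines 2.5-fold. Cry1 is the only gene with both male arrays past 2.5-fold, at -1.97 and -1.73, and in females the arrays of Cry1 and Dbp lie far apart.

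Cry2, the second cryptochrome, was well above background on all 6 arrays by its brightest probe (mm9 chr2:92243807-92243866, minus strand). It stood at 12.66 on the female 2 mg array, 12.97 and 12.79 on the female 20 mg arrays, 12.63 on the male 2 mg array, and 12.40 and 11.81 on the male 20 mg arrays. Both female 20 mg arrays were above and both male 20 mg arrays below their 2 mg array, by a mean of 0.22 in females (SD 0.13) and -0.52 in males (SD 0.42). The second probe of Cry2 (mm9 chr2:92251417-92251476) differed by -1.06 in females and by -0.33 in males, so the probes disagree on the direction in females.

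Per1, a Period gene that is also induced rapidly by light and neural activity, was well above background on all 6 arrays (mm9 chr11:68923364-68923423, plus strand). Its level was 11.75 at 2 mg and 11.29 and 11.25 at 20 mg in females, against 11.37 at 2 mg and 12.09 and 11.80 at 20 mg in males. Both 20 mg arrays lay on one side of the lone 2 mg array in each sex. They were higher in males by 0.58 (SD 0.21) and lower in females by 0.47 (a difference of -0.47, SD 0.03). Of all probes in the limma fit, 43.9% had both 20 mg arrays on one side in males and 49.3% in females. A second probe of Per1 (mm9 chr11:68919895-68919954) went the other way on average, with a difference of -0.59 in males and 0.19 in females, and was well above background on 4 of 6 arrays. The summed signal of 10 immediate early genes, which respond to activity as Per1 does, lay between 3280 and 5050 on the 6 arrays. The highest sum was on female 20 mg replicate 2, where 1 of the 10 was well above background, against 8 or 9 elsewhere. By the 2.5-fold rule 0 of the 10 were called in males. In females 4 were lower and 1 higher, beside 10.3% and 8.65% of all probes. Of the 10, 1 was past 2.5-fold in one direction on both female 20 mg arrays.

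Per2 is a Period gene whose loss shortens the behavioural rhythm of mice (mm9 chr1:93313046-93313105, minus strand). It was measured at 6.70 on the female 2 mg array and 7.38 on female 20 mg replicate 1. In males it was 6.59 on the 2 mg array and 7.71 and 5.78 on the 20 mg arrays. It was not well above background on female 20 mg replicate 2, at 6.34. The 20 mg arrays lay on both sides of the 2 mg array in each sex, and the mean difference was 0.16 in males (SD 1.37) and 0.15 in females (SD 0.74). In females it was 0.72 without replicate 2. Per3, the Period gene least needed for the rhythm, was not well above background on any array (mm9 chr4:150379256-150379315, minus strand), with its values at or near the floor, so no difference is given.

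Nr1d1 (mm9 position as above) was 5.23 on the male 2 mg array and 6.90 and 6.21 on the male 20 mg arrays. Both male 20 mg arrays were higher, by 1.67 and 0.99, and the mean difference of 1.33, or 2.51-fold (SD 0.49, n = 2), was past 2.5-fold but the probe did not pass the filter on variation over all arrays. The male difference was 0.63 with normexp and 0.63 with no background correction. In females it was 6.39 at 2 mg, 5.99 on 20 mg replicate 1 and 5.07, not well above background, on replicate 2, a difference of -0.86 (SD 0.65). Without replicate 2 the difference was -0.46, and with arrays shifted to a common 75th percentile it was 0.04. At 2 mg the male array was 1.17 below the female array, beside the dose difference of 1.33 in males, and there is 1 array for each sex at that dose. Between these arrays each of the other measured genes (Clock, Arntl, Per1, Per2, Cry1, Cry2 and Dbp) differed by no more than 0.38 by its brightest probe.

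Dbp was well above background on all 6 arrays by both of its probes. By the brightest (A_55_P2032079, mm9 chr7:52965461-52965520, plus strand) it was 9.45 at 2 mg and 9.37 and 12.72 at 20 mg in females, and 9.31 at 2 mg and 10.30 and 9.97 at 20 mg in males. The difference of female 20 mg replicate 1 from the 2 mg array was -0.08, and the dim array alone stood far above the rest. The called difference in females was 1.59, or 3.02-fold (SD 2.37), and without the dim array it was -0.08. In males both 20 mg arrays were higher, by 0.82 on average (SD 0.24), short of 2.5-fold. With scan day as a term the male difference was -0.10 (SE 1.48). That term was fitted over both sexes, so it also drew on the dim array. On the male arrays of the later scan day alone the difference was 0.63. The second probe (mm9 chr7:52965322-52965381) gave 0.71 in males and 0.93 in females, with every 20 mg array above the 2 mg array of its sex.

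As a list, the 8 clock genes in the limma fit had a median difference of 0.17 in males and -0.38 in females, beside -0.04 and -0.21 over all probes in that fit. In males 3 of the 8 were higher on both 20 mg arrays (Per1, Nr1d1 and Dbp) and 2 were lower on both (Cry1 and Cry2), beside 20.4% and 23.5% of the probes tested. In females 1 was higher on both (Cry2) and 2 were lower on both (Per1 and Nr1d1), beside 21.2% and 28%. Per1, Cry2 and Nr1d1 thus lay one way on both male and the other way on both female 20 mg arrays, beside 9.01% of all probes. The median gap between the 20 mg pools of a sex was 0.64 for these genes in males and 0.98 in females, against 1.03 and 1.46 for all probes tested.

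The activators were also set against other genes of the loop on each array. For this the mean of Clock, Arntl and Npas2 was subtracted from the mean of Per1, Per2, Per3, Nr1d1 and Dbp after each gene was centred on its mean over the 6 arrays, with the Cry genes left out. This index, in log2 units, was -0.75 on the female 2 mg array, -0.45 and 1.09 on the female 20 mg arrays, -0.35 on the male 2 mg array, and -0.16 and 0.63 on the male 20 mg arrays. Every 20 mg array was above the 2 mg array of its sex, but for female replicate 1 this order rested on Npas2, which was not well above background there. On female replicate 2, which had the highest index, Clock, Npas2, Per2, Per3 and Nr1d1 were not well above background. Dbp stood at 12.72 on that array, far above the rest. Without Npas2 and Per3, a choice made after the values were seen, the index was -0.26 on the female 2 mg array, -0.88 and 1.35 on the female 20 mg arrays, -0.67 on the male 2 mg array, and -0.10 and 0.55 on the male 20 mg arrays. With Cry1 and Cry2 added to that, male replicate 1 at -0.47 also lay below the male 2 mg array at -0.29. Which 20 mg arrays stand above the 2 mg array thus depends on the genes taken.

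The wider clock pathway was read from 29 further genes, all on the array, covering nuclear receptors, DEC repressors, PAR bZIP factors, kinases, ubiquitin ligases and others. Each was read by its brightest probe alone, while the shares are over all probes. In males none of the 29 was called, beside the 2.17% lower and 1.42% higher of all probes. The study lists a kinase of this list as lower in males. Its brightest probe was not called here, and its other probe was not read. In females 4 of the 29 were called lower and 1 higher, beside 10.3% and 8.65% of all probes. Bhlhe40, Nampt and Wee1, named here after their values were seen, were among those lower at 20 mg. Bhlhe40 encodes a repressor that also binds E-boxes, NAMPT makes a precursor of NAD and WEE1 is a cell cycle kinase under clock control. On female 20 mg replicate 2 all of them lay below the mark for well above background. On replicate 1 the difference from the 2 mg array was 0.23 for Bhlhe40, 0.39 for Nampt and -0.49 for Wee1, all short of 2.5-fold. The median difference of the 29 genes was -0.08 in males and -0.13 in females. By its brightest probe, no gene of the list was past 2.5-fold in one direction on both 20 mg arrays of a sex.

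The tissue was checked with marker lists, given as summed normalized signal on the linear scale. Of 13 cerebellar markers, 13 were well above background on both 2 mg arrays and on female 20 mg replicate 1, 12 on both male 20 mg arrays and 8 on female 20 mg replicate 2. The cerebellar sum was 58800 on the female 2 mg array and 46600 and 34700 on the female 20 mg arrays. In males it was 55500 at 2 mg and 63000 and 35700 at 20 mg. The choroid plexus sum was 2880 on the female 2 mg array and 20800 to 76500 on the other 5, with 4 or 5 of 5 markers well above background on each array. The forebrain sum was 15800 on female 20 mg replicate 1 and 1720 to 6510 elsewhere, with 8 of 8 markers well above background on 4 arrays. The pineal list, with 3 of 4 markers on the array, summed to 233 to 2570, red blood cells to 29200 to 181000 and glucocorticoid responsive genes to 9060 to 16900. Fewer cells of a type and less RNA per cell cannot be told apart in such pools. The part of these tissues in the dose differences of the clock genes was not tested.

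**Figure D3:**
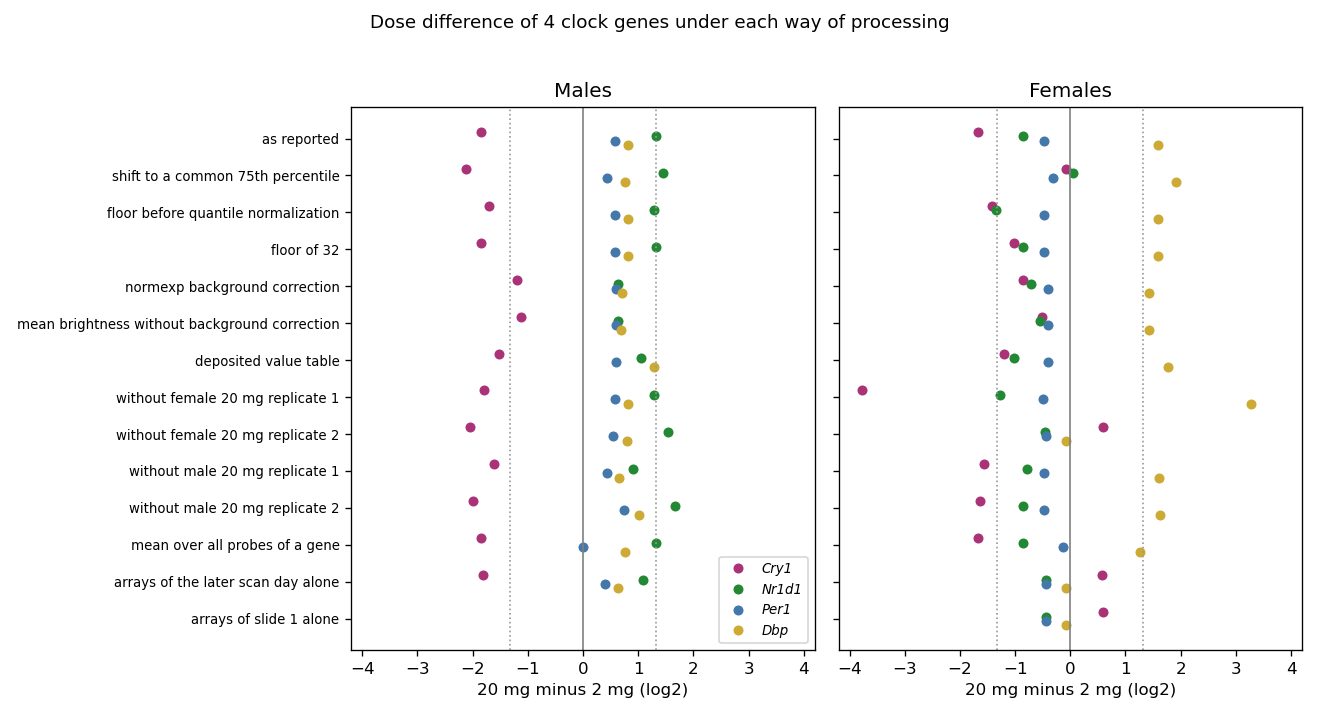
Difference between 20 mg and 2 mg (log2) of Cry1, Nr1d1, Per1 and Dbp as reported (top row) and under alternatives of scaling, floor, background correction, source table, probe and arrays left out, males on the left and females on the right, with dotted lines at 2.5-fold. In males Cry1 stays below 0 in every row that has a male value (slide 1 holds no male 20 mg array), from -2.12 to -1.12, and in females Cry1 and Dbp change sign where female 20 mg replicate 2 is left out.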

How the data were processed

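RNA of 6 pools was measured on one-color Agilent 8 x 60 k arrays. The authors made the deposited scanner files with Agilent Feature Extraction 10.7.3.1, whose processed signal is an intensity with the background subtracted. The files also give mean and background intensities and flags. The authors' deposited value table holds log2 values, quantile normalized with a floor in BRB-ArrayTools, and its lowest value differs between arrays (3.41 to 5.23). Groups follow the labelled sex and dose, and 0 columns of other samples were used.

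Outlier spots were left out, spots of a probe were averaged, and the log2 signals were quantile normalized over 6 arrays and raised to a floor of 10. The order of normalization and floor is not stated in the methods. The variation filter kept probes with a chi-square p of at most 0.05 and at most 50% of values missing, and calls needed 2.5-fold. limma 3.58.1 in R 4.3.3 used 4 groups of sex and dose with a trend, 2 residual degrees of freedom and a Benjamini-Hochberg adjusted p under 0.05. The lone 2 mg array of a sex was assumed to vary like the 20 mg arrays. Tested on simulated data with 200 of 37206 probes changed by 4 (log2), the fit recovered 100% at a noise SD of 0.2, and 14.5% in males and 6.5% in females at the noise of the arrays. The number of arrays limits the precision.

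A gene is represented by its brightest probe. All 10 genes are named. Pathway genes were to be named if past 2.5-fold on both 20 mg arrays and well above background at 1 dose, and others only from counts of 5 or fewer. Some genes of the pathway list are not reported here. Genes most like Arntl, Per2 and Nr1d1 were taken by the smallest root mean square difference. The genes, lists and comparisons were chosen with earlier results of these data known. Alternatives were another scaling, floor, background correction, source table, probe or dim-probe filter, no variation filter, scan day, slide, and leaving out each 20 mg array. Of the RefSeq accessions of member probes, 11 of 12 were found under the same symbol in the RefSeq gene table. Probe positions are in mm9 and promoter windows in GRCm38.p6, and neither was converted.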

Additional observations from a re-analysis of the deposited data

Results flagged for a closer look

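In 3 of the 8 clock genes in the limma fit, both 20 mg arrays of males lay on one side of the 2 mg array and both 20 mg arrays of females on the other, as in 9.01% of all probes tested. The female difference minus the male difference was -1.05 for Per1, 0.75 for Cry2 and -2.19 for Nr1d1, each with an adjusted p of 1 for the interaction of dose and sex in limma across all probes. The second probes of Per1 and Cry2 did not show the pattern, and Nr1d1 was not well above background on female 20 mg replicate 2.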

How the results depend on the processing

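Of 250 values of single clock genes under the alternatives, 26 changed sign, in 12 of the 20 pairs of gene and sex. Of these, 20 were values not called, of Clock, Arntl and Per2 in both sexes, Per1 and Per3 in males and Cry2 and Nr1d1 in females. The other 6 were called values: Cry1 in females, at 0.59 without female 20 mg replicate 2, 0.57 on the arrays of the later scan day and 0.60 on slide 1 alone, and Dbp in females, at -0.0777, -0.0779 and -0.0798 in the same order. With 1 array left out, Cry1 in females ranged from -3.77 to 0.59 and Dbp in females from -0.0777 to 3.28. The clock genes past 2.5-fold in males numbered 0 under a shift to a common 75th percentile, normexp and mean brightness, and 2 with no variation filter, which adds Nr1d1. With 1 array left out the male count was 1 each time. In females the count was 0 under the 75th percentile shift, 4 with the floor before normalization, and 1 with a floor of 32, normexp, mean brightness, the deposited value table (Dbp in each) or the mean over all probes (Cry1). It was 1 to 2 with 1 array left out, and 1, Npas2, without female 20 mg replicate 2, on the later scan day and on slide 1 alone. The 75th percentile shift moved the median difference of all probes in females from -0.21 to 0.45.

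limma calls over all probes in females numbered 3 under the 75th percentile shift, 3 under normexp and 1 with mean brightness. With 1 array left out they ranged from 0 to 96 in females, highest without female 20 mg replicate 1, from 0 to 13 over both sexes, from 0 to 1 in males and from 0 to 2 for the interaction. In females there were also 6 without male 20 mg replicate 1 and 2 without male 20 mg replicate 2, and over both sexes 12 without male 20 mg replicate 2. Among Cry1, Dbp, Nr1d1 and Per1, the smallest adjusted p in any setting was 0.292, for Dbp in females without female 20 mg replicate 1. The slide as a random block, added after seeing the data with a moment estimate of the correlation of -0.15, put Cry1 in males at -2.35. The causes of these moves were not tested. No paired analysis was possible because the 2 mg groups have 1 array each, which carries no replicate number. Low signal over background limits Npas2, Per3 and 6 of the 10 genes on the dim array.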

Other observations

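The symbols whose centred log2 levels over the 6 arrays lay closest to those of Arntl, among 18085 candidates, were 1810027O10Rik and Gmeb2, with a root mean square difference of 0.056 and 0.066. For Per2 they were Klf2 (0.094) and 5730508B09Rik (0.106), and for Nr1d1 Itga5 (0.161) and Tfeb (0.164). These are descriptions over 6 arrays that share normalization, with no test.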
